A study of Mus musculus with 8 samples.

Results

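The genes of the mouse major histocompatibility complex (MHC, called H2 in the mouse) and of the machinery that prepares and displays antigens were followed in inguinal white adipose tissue, the subcutaneous fat of the groin. Members were chosen by name. They are the array probes whose gene symbol starts with H2- or is B2m, Tap1, Tap2, Tapbp, Tapbpl, Psmb8, Psmb9, Psmb10, Erap1, Nlrc5, Ciita, Cd74, Cd1d1, Ctss, Cd80 or Cd86. This gave 62 probes of 50 genes, out of 55681 probes and 20972 named genes on the array. Of these, 52 probes of 41 genes passed the brightness filter, a signal well above background on 4 or more of the 8 arrays, and were tested.

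The Senp2-aKO group had 4 samples from mice with the genotype Senp2flox/flox with Adipoq Cre, in which both Senp2 alleles are flanked by loxP sites and a Cre recombinase runs from the promoter of the adiponectin gene. The control group had 4 samples from Senp2flox/flox mice, so the floxed alleles are shared by both groups. All mice began a high-fat diet (58 kcal% fat, with sucrose) at 8 weeks of age, ate it for 12 weeks and were housed at 22 to 24 °C. The adiponectin promoter acts in adipocytes, so the other cells of the fat pad keep Senp2, and the labels give neither the sex of the mice nor whether tissue was pooled. Senp2 encodes a protease that takes the small protein SUMO off other proteins. Total RNA of the whole tissue was measured on 1-colour Agilent arrays, in which fewer cells of a type and less RNA per cell cannot be told apart.

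MHC class I molecules pair a heavy chain with the light chain beta-2 microglobulin and show peptides from inside the cell to CD8 T cells. Proteasomes cut those peptides, the TAP transporter carries them into the endoplasmic reticulum, and loading factors fit them into the groove. MHC class II molecules show peptides from endosomes to CD4 T cells and are made mainly by dendritic cells, macrophages and B cells; adipocytes have also been described to make class II molecules in obesity. The protein Nlrc5 switches on class I genes and the protein Ciita switches on class II genes.

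Class I and class II promoters carry short control elements, some of them found in both classes. The promoters of 6 members are printed to show them beside the genes whose levels are compared below. The sequences are from RefSeq (build GRCm38.p6) and give the 200 bases before a transcript start of the gene, 5′ to 3′ on its strand, with the first start of the promoter table used where it lists several. For H2-K1 that start lies inside the annotated span of the gene, so its window does too. The chosen genes are H2-Q10 (chr17:35469889-35470088, plus strand), which rose, H2-K1 (chr17:34000348-34000547, minus strand) and H2-D1 (chr17:35262894-35263093, plus strand), the classical class I genes, and the class II genes H2-Eb1 (chr17:34305667-34305866, plus strand), H2-Ob (chr17:34238705-34238904, plus strand) and H2-Aa (chr17:34287824-34288023, minus strand). Capitals mark the motifs found by letters on either strand.
H2-Q10: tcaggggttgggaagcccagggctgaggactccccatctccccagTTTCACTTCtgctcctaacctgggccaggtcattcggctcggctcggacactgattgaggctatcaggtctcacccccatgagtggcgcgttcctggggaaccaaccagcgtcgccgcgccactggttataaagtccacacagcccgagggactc
H2-K1: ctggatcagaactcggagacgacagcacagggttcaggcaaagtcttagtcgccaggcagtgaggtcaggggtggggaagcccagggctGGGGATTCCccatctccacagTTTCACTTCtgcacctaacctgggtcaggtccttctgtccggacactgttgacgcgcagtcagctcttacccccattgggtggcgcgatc
H2-D1: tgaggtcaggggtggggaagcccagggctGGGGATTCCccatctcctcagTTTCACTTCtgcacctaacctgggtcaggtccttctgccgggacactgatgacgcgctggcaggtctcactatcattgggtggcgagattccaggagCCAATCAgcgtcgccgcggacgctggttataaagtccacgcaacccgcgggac
H2-Eb1: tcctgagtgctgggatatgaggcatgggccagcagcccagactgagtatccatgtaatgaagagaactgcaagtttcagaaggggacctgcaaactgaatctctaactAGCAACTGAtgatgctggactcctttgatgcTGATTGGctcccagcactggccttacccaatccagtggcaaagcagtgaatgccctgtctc
H2-Ob: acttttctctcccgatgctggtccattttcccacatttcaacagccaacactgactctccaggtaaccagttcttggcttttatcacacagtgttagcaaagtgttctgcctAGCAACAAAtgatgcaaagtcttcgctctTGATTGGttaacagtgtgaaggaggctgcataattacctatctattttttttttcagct
H2-Aa: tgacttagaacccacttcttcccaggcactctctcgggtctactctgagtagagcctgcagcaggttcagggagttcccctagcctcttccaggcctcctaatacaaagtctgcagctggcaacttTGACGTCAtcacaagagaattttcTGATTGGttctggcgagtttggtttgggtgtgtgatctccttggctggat

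Of the 50 genes, 36 had a promoter entry. The enhancer A letters GGGGATTCC, of the kind that NF-kappaB proteins bind, were found in H2-K1, H2-D1 and H2-Q7 and in 0.155% of 27025 promoters of this length. The interferon response letters TTTCACTTC, of the kind that IRF proteins bind, were found in 6 members (H2-D1, H2-K1, H2-M3, H2-Q4, H2-Q7 and H2-Q10) and in 0.333% of all promoters. The Y box TGATTGG, of the kind that NF-Y binds, was found in 19 members and in 6.98% of all promoters. Class II genes (among them H2-Eb1, H2-Ob and H2-Aa) and class I genes (among them H2-D1, H2-Q4, H2-Q7 and H2-T23) both held it. The X box AGNAACNNA, of the kind that RFX proteins bind, was found in H2-DMb1, H2-Eb1, H2-Eb2, H2-M5, H2-Oa and H2-Ob and in 3115 of the 27025 promoters. The cAMP response letters TGACGTCA were found in H2-Aa and in 1.55% of all promoters. None of these motifs overlapped another in the 6 printed promoters. A match of letters is a description of the sequence and not a measured site.

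Levels are given on a log2 scale relative to the 75th percentile of the signal of each array, in the order aKO 1 to aKO 4 and control 1 to control 4, and are not compared between probes. The Senp2 probe had levels of 2.19, 2.12, 2.20 and 2.22 in Senp2-aKO samples and 2.46, 2.46, 2.52 and 2.37 in control samples, a log2 difference of -0.27 (SE 0.08) that did not pass (limma adjusted p = 0.0796), although the groups did not overlap. Whether this probe lies in the deleted part of the gene was not examined, so it does not check the deletion. The 75th percentile itself was 349 ± 27.1 in Senp2-aKO samples and 419 ± 18.2 in control samples (SD, n = 4 each, two-sided exact permutation p = 0.0286, the smallest that 70 assignments allow). All Senp2-aKO arrays lay in one row of the slide and all control arrays in the other, so slide row and genotype cannot be told apart. All 10 adipocyte markers were detected, with a mean log2 level of 6.79 to 7.29 in Senp2-aKO and 7.08 to 7.32 in control samples, and 1 of them fell. All 10 skeletal muscle markers were detected and rose, and none was below background on all arrays; their mean log2 level was 3.87 to 5.56 in Senp2-aKO and -1.58 to 1.73 in control samples. The part of muscle RNA in the differences below was not tested. The array aKO 2 stood apart in lymphocyte markers and in the mean of the lymph node markers. The mean log2 level of 7 B lymphocyte markers was 1.48 on aKO 2 and -2.93, -2.69 and -2.71 on aKO 1, aKO 3 and aKO 4, against -0.76, -3.08, -1.61 and -3.04 on the control arrays. For 11 T lymphocyte markers it was 2.49 on aKO 2 and -0.92 to -0.21 on the other 3 Senp2-aKO arrays, against -0.55 to 0.28 on the control arrays. For 4 lymph node markers it was 2.13 on aKO 2 and -0.93 to 0.02 on the other 3 Senp2-aKO arrays, against -1.46 to -0.35 on the control arrays. These 4 genes, named after their values were seen, did not all single out aKO 2. Ltb and Ccl19 were highest on aKO 2 (4.83 and 2.57). Ltb is made by lymphocytes, so the lymph node mean is not separate from the lymphocyte markers. Cxcl13 was highest on aKO 1 (3.40, against 3.07 on aKO 2) and Madcam1 on aKO 4 (-1.13, against -1.95 on aKO 2). None of the 8 endothelium, 5 neutrophil and 4 NK cell markers tested passed, and 2 of 3 tested mammary epithelium markers rose. Results that rest on aKO 2 are therefore given with and without it.

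Most antigen presentation genes did not pass the test between genotypes. A probe passed at a limma adjusted p under 0.05, with adjustment over all 30507 tested probes. Of the 52 member probes, 2 rose, 2 fell and 48 did not pass, where 5.48% of all tested probes rose and 4.35% fell (9.83% in either direction). The probes that rose belong to the class Ib gene H2-Q10 and to H2-Ke6, and those that fell to Tapbpl and Psmb10, parts of the class I peptide pathway. The groups did not overlap for 3 probes that were higher and 2 that were lower in Senp2-aKO samples (11.9% and 11.2% of all tested probes). At an unadjusted p under 0.05, 4 were higher and 3 lower (15% and 13.4% of all). The median log2 difference of the 52 probes was -0.02, against 0.02 over all tested probes. These shares lie near or below those of the whole array.

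**Figure D1:**
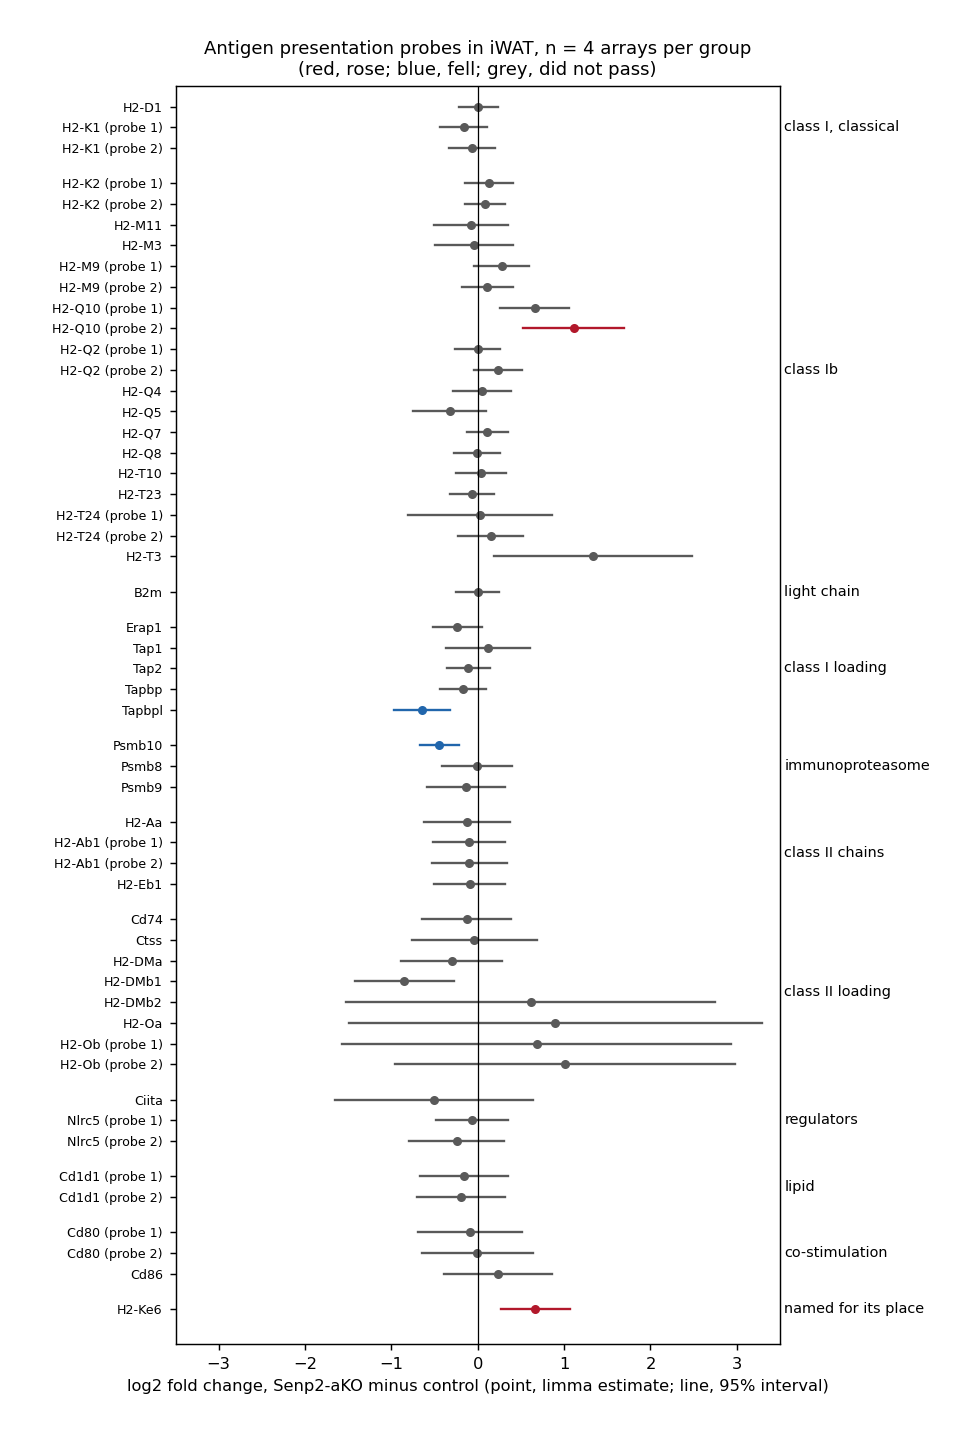
Log2 fold change (Senp2-aKO minus control) of the 52 tested member probes, grouped by role, with limma estimates as points and 95% intervals as lines; where a gene has several probes they are numbered in the order of their identifiers. Only 1 H2-Q10 probe and H2-Ke6 (red) and Tapbpl and Psmb10 (blue) passed, and the widest intervals belong to H2-Oa, H2-Ob and H2-DMb2.

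The largest called rise was that of H2-Q10, a class Ib gene on chromosome 17 whose product is a secreted class I molecule known in the mouse mainly from liver. Its probe A_55_P2037343 had levels of 5.89, 5.20, 5.17 and 6.14 in Senp2-aKO samples and 4.38, 4.82, 4.13 and 4.63 in control samples. All Senp2-aKO samples were above all control samples, with aKO 1 and aKO 4 highest. It averaged 5.60 ± 0.49 in Senp2-aKO and 4.49 ± 0.30 in control samples (SD, n = 4 each). The rise was 1.11 (SE 0.25), or 2.16-fold with a 95% interval of 1.44 to 3.23 (limma adjusted p = 0.0329). The other H2-Q10 probe, A_55_P1995092, had levels of 3.51, 3.19, 3.30 and 3.94 in Senp2-aKO samples and 2.88, 2.96, 2.58 and 2.89 in control samples. Its groups did not overlap either, and its difference of 0.66 (SE 0.18) missed the threshold (limma adjusted p = 0.0527). It passed without aKO 2 (0.76, limma adjusted p = 0.0357), with quantile normalization (0.65, 0.0367), with the normexp background (0.61, 0.0358) and among probes well above background on all 8 arrays (0.0425, each a limma adjusted p). These were the only passes in 16 settings, the main fit included, where the limma adjusted p reached 0.135. On this probe aKO 2 was the lowest Senp2-aKO array, so leaving it out raises the difference by construction. Leaving out 1 array at a time, A_55_P2037343 kept its call without aKO 2 or aKO 3 (limma adjusted p = 0.0296 and 0.0265) and lost it without aKO 1 (0.0788), aKO 4 (0.0673), control 1 (0.0919), control 2 (0.0526), control 3 (0.0904) or control 4 (0.0659). Class I heavy chain genes are close copies of each other, the letters of the probes were not used here, and whether the H2-Q10 probes also bind transcripts of other class I genes was not tested.

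The classical class I heavy chains H2-K1 and H2-D1, which carry most peptides to CD8 T cells, did not pass. H2-D1 had levels of 7.37, 7.37, 7.56 and 7.52 in Senp2-aKO samples and 7.60, 7.44, 7.37 and 7.41 in control samples, a log2 difference of 0.0037 with a 95% interval of -0.22 to 0.23. H2-K1 (A_51_P198434) had levels of 7.82, 8.05, 8.10 and 7.94 in Senp2-aKO samples and 8.36, 8.11, 8.12 and 7.96 in control samples, a difference of -0.16 with an interval of -0.43 to 0.11. Its other probe gave -0.07 (-0.34 to 0.19). The groups overlapped for all 3 classical probes. The H2-Q10, H2-K1 and H2-D1 promoters all held the interferon response letters, and of these 3 windows only those of H2-K1 and H2-D1 held the enhancer A letters.

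Among the non-classical and related class I genes, 19 probes of 14 genes were tested. Only the H2-Q10 probe passed, and the median difference was 0.08 with a range of -0.33 to 1.34, the upper end being that of the dim H2-T3 probe. H2-T23, which encodes the Qa-1 molecule that presents signal peptides to NK and T cells, had 6.43, 6.64, 6.72 and 6.63 in Senp2-aKO samples and 6.85, 6.71, 6.56 and 6.56 in control samples. H2-M3, which presents formylated peptides, had 0.60, 1.49, 0.95 and 0.61 in Senp2-aKO samples and 0.97, 0.89, 1.09 and 0.87 in control samples. The groups overlapped for H2-T23 (difference -0.07, SE 0.11) and for H2-M3 (difference -0.04, SE 0.20). H2-Q4 differed by 0.05 (SE 0.14). H2-T3, named after its values were seen, encodes the thymus leukaemia antigen, and its levels were -3.33, -3.73, -4.27 and -3.28 in Senp2-aKO samples and -6.19, -5.03, -5.15 and -3.58 in control samples. The probe was well above background on all 4 Senp2-aKO arrays and on 1 control array, control 4, which lay within the Senp2-aKO range. The difference did not pass (limma adjusted p = 0.127), and its size, 1.34 over all arrays and 0.50 with the normexp background (limma adjusted p = 0.0303), rests on control signals near background. Without control 4 no control array was well above background, so no size is given for that fit (limma adjusted p = 0.0354). There the H2-T3 probe met the brightness filter through the Senp2-aKO arrays alone, where it was higher, and the p-value does not allow for that.

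The class I light chain B2m had levels of 8.17, 7.89, 8.17 and 8.21 in Senp2-aKO samples and 8.28, 8.07, 8.03 and 8.07 in control samples, a log2 difference of -0.0029 with a 95% interval of -0.26 to 0.25. The lowest value was that of aKO 2 and the highest that of control 1. Of the 5 genes of peptide transport, trimming and loading, 1 fell and 4 did not pass. Tapbpl on chromosome 6, which encodes the peptide editor TAPBPR that exchanges peptides on class I molecules, had levels of -0.29, 0.21, 0.26 and -0.12 in Senp2-aKO samples and 0.70, 0.78, 0.58 and 0.59 in control samples. All Senp2-aKO samples lay below all control samples. Tapbpl fell by 0.65 (SE 0.14), or 1.56-fold lower with a 95% interval of 1.25 to 1.96 (limma adjusted p = 0.0289). Tapbpl kept its call without aKO 2 or aKO 3 (0.0263 and 0.0228, limma adjusted p) and lost it without aKO 1 (0.0569), aKO 4 (0.0731), control 1 (0.0849), control 2 (0.0767), control 3 (0.0691) or control 4 (0.0618).

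The other members of this group did not pass. Tapbp, which encodes tapasin and bridges class I molecules to TAP, had levels of 4.71, 4.37, 4.69 and 4.69 in Senp2-aKO samples and 4.94, 4.64, 4.83 and 4.74 in control samples (difference -0.17, SE 0.12). The transporter subunits differed by 0.12 (SE 0.21) for Tap1 and by -0.11 (SE 0.11) for Tap2. Erap1, which trims peptides in the endoplasmic reticulum, had -1.66, -1.32, -1.31 and -1.65 in Senp2-aKO samples and -1.26, -1.22, -1.12 and -1.39 in control samples, a difference of -0.23 (SE 0.12). The groups overlapped for Tap1, Tap2, Tapbp and Erap1, and the difference between Tapbpl and these genes was not tested.

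The immunoproteasome swaps 3 catalytic subunits of the standard proteasome for inducible ones, and 1 of these fell. Psmb10 on chromosome 8, which encodes the subunit beta-2i, had levels of 5.40, 5.40, 5.61 and 5.28 in Senp2-aKO samples and 5.87, 5.87, 5.87 and 5.86 in control samples. The control samples lay close together (SD 0.01) and above all Senp2-aKO samples (SD 0.14). Psmb10 fell by 0.45 (SE 0.10), or 1.36-fold lower with a 95% interval of 1.17 to 1.59 (limma adjusted p = 0.0284). It kept its call without aKO 2 or aKO 3 (0.0332 and 0.0198, limma adjusted p) and lost it without aKO 1 (0.0666), aKO 4 (0.0696), control 1 (0.0860), control 2 (0.0724), control 3 (0.0793) or control 4 (0.0698).

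The other inducible subunits did not pass. Psmb8 (beta-5i) had levels of 3.02, 3.80, 3.38 and 3.10 in Senp2-aKO samples and 3.42, 3.43, 3.27 and 3.21 in control samples. Psmb9 (beta-1i), which lies beside Tap1 in the MHC, had 2.74, 3.63, 3.22 and 2.86 in Senp2-aKO samples and 3.40, 3.34, 3.08 and 3.18 in control samples. For both genes aKO 2 was the highest array and aKO 1 the lowest, and the differences were -0.01 (SE 0.18) for Psmb8 and -0.13 (SE 0.20) for Psmb9. Without aKO 2 they were -0.17 and -0.31 and still did not pass (limma adjusted p = 0.369 and 0.187). In that fit Psmb10 differed by -0.44.

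**Figure D2:**
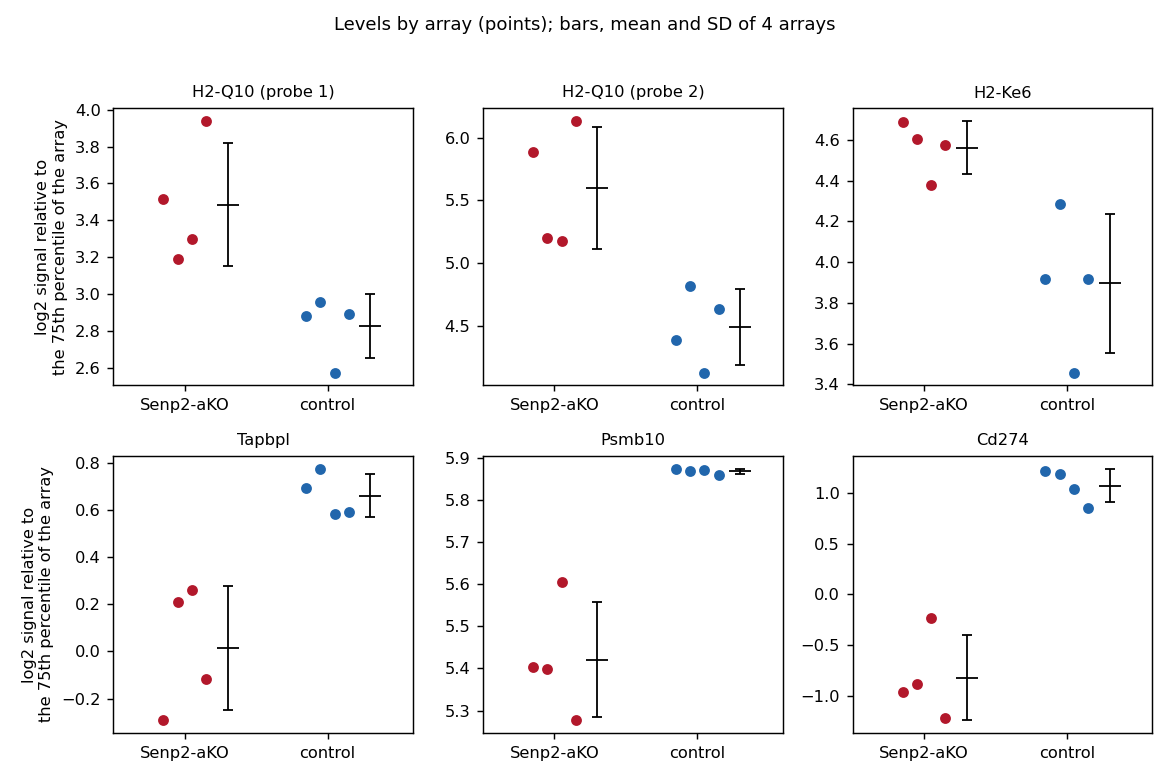
Levels (log2, relative to the 75th percentile of the array) of both H2-Q10 probes (probe 1 is A_55_P1995092, probe 2 is A_55_P2037343), H2-Ke6, Tapbpl, Psmb10 and the checkpoint ligand gene Cd274, with 1 point per array and the mean and SD of 4 arrays as a bar; the y axes differ and do not start at 0. The groups do not overlap in any of the 6 panels, and the largest gap is that of Cd274.

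The class II genes split the Senp2-aKO samples. On all 4 tested class II chain probes and on 6 of 8 probes of class II loading and processing, aKO 2 had the highest level of the 8 arrays. H2-Aa, the alpha chain of I-A, had levels of 3.77, 4.67, 3.81 and 3.69 in Senp2-aKO samples and 4.09, 3.94, 4.29 and 4.10 in control samples. Its partner chain H2-Ab1 (A_55_P1962747) had 7.15, 7.84, 7.12 and 7.12 in Senp2-aKO samples and 7.53, 7.22, 7.52 and 7.37 in control samples. Cd74, the invariant chain that guides class II molecules to endosomes, had 5.92, 6.88, 5.93 and 5.90 in Senp2-aKO samples and 6.38, 6.12, 6.45 and 6.20 in control samples. In each of these genes aKO 2 lay above all control arrays and the other 3 Senp2-aKO arrays lay below them. H2-Eb1, the beta chain of I-E, had 7.20, 7.82, 7.12 and 7.11 in Senp2-aKO samples and 7.46, 7.20, 7.60 and 7.36 in control samples.

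Over all 8 arrays none of the 12 tested class II chain and loading probes passed. The differences were -0.12 (SE 0.22) for H2-Aa, -0.10 (SE 0.18) for H2-Ab1, -0.09 (SE 0.18) for H2-Eb1 and -0.13 (SE 0.23) for Cd74. Without aKO 2, 11 of the 12 probes were below 0, 7 of them with no overlap between the groups, and 2 passed. In that fit 6.71% of all tested probes rose and 5.96% fell, and the groups did not overlap for 16.7% that were higher and 14% that were lower. The array aKO 2 was singled out with these values known and was the highest on most of the 12 class II probes. Leaving out the highest Senp2-aKO array lowers a difference by construction, and the p-values without aKO 2 do not allow for that choice. The probes that passed without aKO 2 were those of H2-DMa and H2-DMb1, the chains of the H2-DM dimer that helps to load class II molecules. H2-DMa had levels of 0.87, 2.18, 1.23 and 1.19 in Senp2-aKO samples and 1.73, 1.66, 1.73 and 1.56 in control samples. Its difference was -0.30 (SE 0.25) over all arrays and -0.57 (SE 0.11) without aKO 2 (limma adjusted p = 0.467 and 0.0264). H2-DMb1 had 3.04, 4.003, 3.71 and 3.47 in Senp2-aKO samples and 4.67, 3.94, 4.77 and 4.25 in control samples. Its difference was -0.85 (SE 0.25) over all arrays and -0.9996 (SE 0.25) without aKO 2 (limma adjusted p = 0.0693 and 0.0433). Over 17 settings, the main fit included, H2-DMb1 differed by -1.01 to -0.68 and passed in 2. Of these, 1 was the fit without aKO 2, and the other was an alternative processing of all 8 arrays (limma adjusted p = 0.0381). H2-DMa differed by -0.57 to -0.14 and passed in 1 setting, the fit without aKO 2. The chains themselves did not pass without aKO 2, with differences of -0.35 for H2-Aa (limma adjusted p = 0.0678), -0.28 and -0.29 for the H2-Ab1 probes (0.109 and 0.0868) and -0.26 for H2-Eb1 (0.155), and neither did Cd74 at -0.37 (0.0602).

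**Figure D3:**
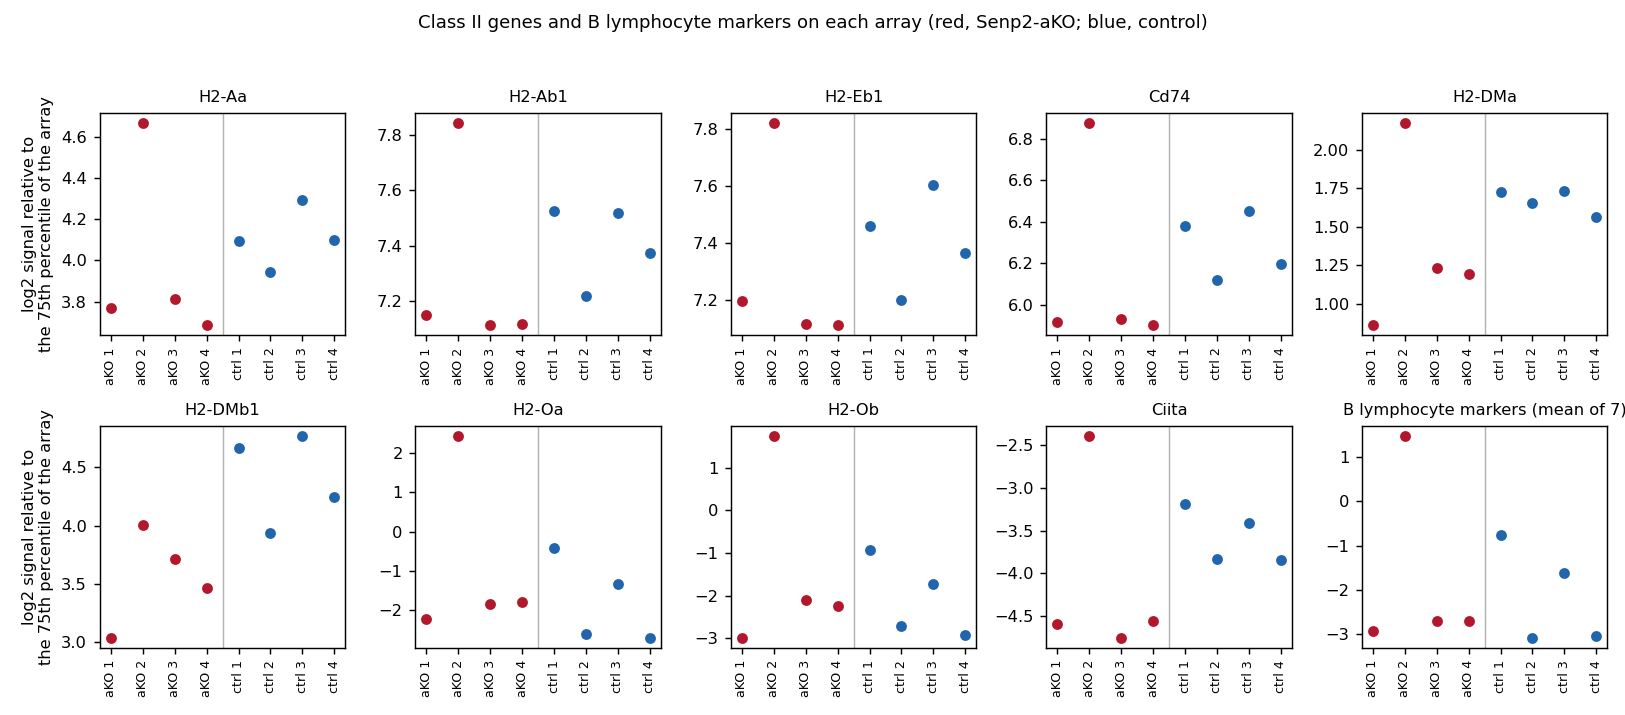
Levels (log2, relative to the 75th percentile of the array) of class II genes and Ciita on each Senp2-aKO array (red, left) and each control array (blue, right), with the mean of 7 B lymphocyte markers in the last panel; genes with several probes are shown by the probe with the highest control mean, and the y axes differ. On aKO 2 the H2-Aa level is 4.67 and the B lymphocyte mean 1.48, while aKO 1, aKO 3 and aKO 4 lie below all control arrays for H2-Aa, H2-Ab1, Cd74, H2-DMa and Ciita.

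H2-Oa and H2-Ob encode the H2-O dimer, which restrains H2-DM and is known mainly from B cells. H2-Oa had levels of -2.23, 2.43, -1.85 and -1.78 in Senp2-aKO samples and -0.41, -2.59, -1.34 and -2.69 in control samples. H2-Ob (A_55_P2082929) had -2.98, 1.74, -2.10 and -2.24 in Senp2-aKO samples and -0.94, -2.71, -1.72 and -2.93 in control samples. The aKO 2 values were the highest for both genes, and within the control group control 1 and control 3 were above control 2 and control 4, as in the B lymphocyte mean. The sign of the difference rested on aKO 2: it was 0.90 for H2-Oa and 0.68 for H2-Ob over all arrays, and -0.20 and -0.36 without aKO 2, with none of the 4 values passing. The other H2-Ob probe gave 1.01 over all arrays and 0.07 without aKO 2. H2-DMb2, named after its values were seen, had -5.11, -0.61, -4.63 and -4.18 in Senp2-aKO samples and -3.28, -4.39, -4.15 and -5.16 in control samples, and its difference was 0.61 over all arrays and -0.40 without aKO 2, neither of which passed. H2-Eb2 was well above background on aKO 2 and control 1 alone and was not tested, with a level of -0.82 on aKO 2 and -5.90 to -3.67 on the other 7 arrays. Ctss, the endosomal protease that trims the invariant chain, had 4.31, 5.32, 4.36 and 4.51 in Senp2-aKO samples and 4.70, 4.09, 5.38 and 4.49 in control samples (difference -0.04, SE 0.31).

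Counted over all 52 probes, aKO 2 was the highest array for 18 and the lowest for 5, where it was the highest for 21.4% and the lowest for 30.6% of all tested probes. It lay far above the other 3 Senp2-aKO arrays for 8 member probes and far below them for 4 (1.82% and 2.98% of all tested probes; gap over range above the 95% critical value of Dixon). The mean log2 level of 12 macrophage markers was 2.06 to 2.22 in Senp2-aKO and 1.90 to 2.73 in control samples, and 1 of the 12 rose. This mean covers differences in both directions. Cd163 rose by 1.04, and Cd14 differed by 0.68 without passing (limma adjusted p = 0.100). Trem2 and Itgax differed by -1.71 and -1.16 without passing (limma adjusted p = 0.0741 and 0.145). Cd14, Trem2 and Itgax are named after their values were seen. The mean log2 level of 9 dendritic cell markers was 1.58 on aKO 2 and 0.35 to 0.57 on the other 3 Senp2-aKO arrays, against 0.40 to 0.76 on the control arrays, and 1 of the 9 rose. Not all of the 9 were high on aKO 2. Ccr7 was at 3.34 there and at most -0.29 on the other Senp2-aKO arrays. Zbtb46 was lowest of the Senp2-aKO arrays on aKO 2 (-2.66). The marker that rose was Clec10a, by 0.81 (limma adjusted p = 0.0406) with overlap between the groups. Clec10a is also known from macrophages, and it was higher on aKO 1 (5.35) than on aKO 2 (5.12). Ccr7 and Zbtb46 are named after their values were seen. None of the B lymphocyte, T lymphocyte or lymph node markers passed. The part of these cells in the class II levels was not tested.

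**Figure D4:**
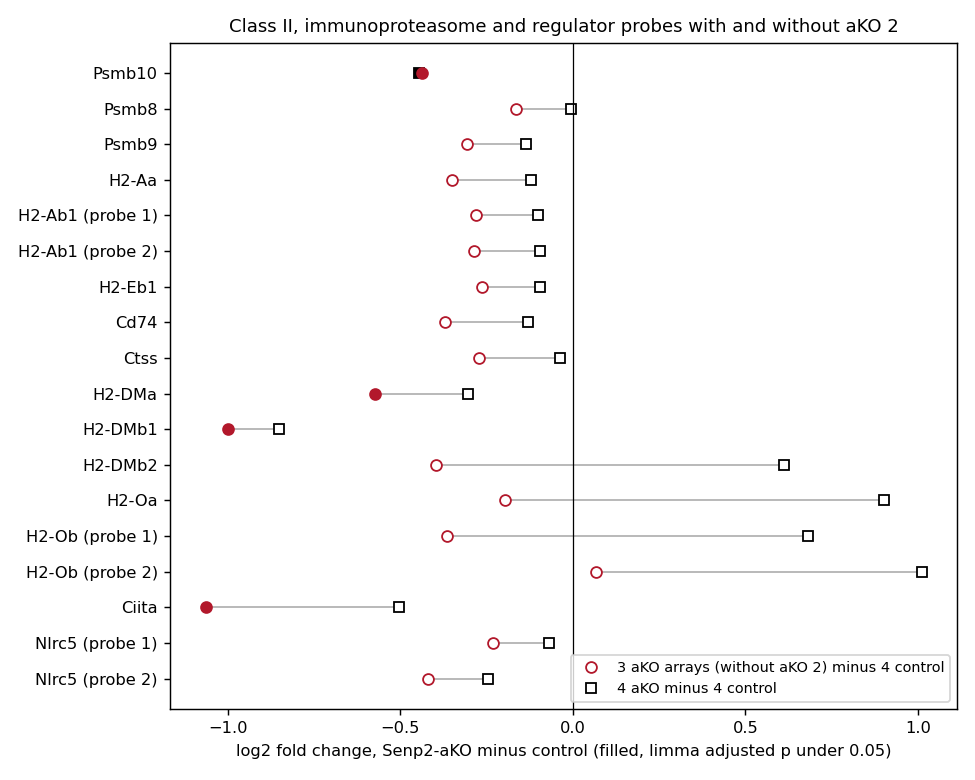
Log2 fold change (Senp2-aKO minus control) of the class II, immunoproteasome and regulator probes with all 8 arrays (squares) and without aKO 2 (circles), filled where the limma adjusted p was under 0.05. The circles lie to the left of the squares for all probes but Psmb10, and those of H2-DMa, H2-DMb1, Ciita and Psmb10 are filled.

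Of the regulators, neither passed over all 8 arrays. Ciita had levels of -4.59, -2.40, -4.75 and -4.55 in Senp2-aKO samples and -3.19, -3.84, -3.41 and -3.84 in control samples, a difference of -0.50 (SE 0.50). It was well above background on all 4 control arrays and, of the Senp2-aKO arrays, on aKO 2 alone. Without aKO 2 the probe was lower in Senp2-aKO samples (limma adjusted p = 0.0183), and since it was not well above background on aKO 1, aKO 3 and aKO 4, the size can only be bounded, at least 1.96-fold lower. Here the bound sets the control mean against the lowest signal counted as well above background on each array, or the signal of the probe where that was higher. On the Ciita probe too aKO 2 was the highest array, and the p-value without aKO 2 does not allow for its being singled out. Without aKO 2 the probe met the brightness filter through the control arrays alone, where it was higher. The p-value does not allow for that either. Nlrc5 (A_55_P2016034) had 1.14, 2.04, 1.63 and 1.38 in Senp2-aKO samples and 1.61, 1.53, 1.65 and 1.67 in control samples, a difference of -0.07 (SE 0.18). Its dimmer probe differed by -0.25 (SE 0.24).

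Cd1d1, which presents lipids to invariant NKT cells and is made by adipocytes as well as immune cells, had levels of 6.34, 5.49, 6.46 and 6.48 in Senp2-aKO samples and 6.55, 6.37, 6.24 and 6.24 in control samples (A_51_P517430). Here aKO 2 was the lowest array, as it was in the adipocyte marker mean of 6.79. Not every adipocyte marker was low on aKO 2, and the genes named here were picked after their values were seen. Lep and Lpl were lowest there (2.61 and 7.81), while Fabp4 and Cidec were above all control arrays (9.70 and 8.78). The Cd1d1 difference was -0.16 (SE 0.22) over all arrays and turned to 0.08 without aKO 2, and the other Cd1d1 probe gave -0.19 and 0.05. The co-stimulatory ligands Cd80 and Cd86, which give T cells their activating signal, did not pass. Cd86 had 0.51, 1.36, 0.94 and 0.02 in Senp2-aKO samples and 0.67, 0.20, 0.64 and 0.38 in control samples (difference 0.24, SE 0.27). Cd80 (A_55_P2001218) differed by -0.09 (SE 0.26).

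H2-Ke6 carries the H2- prefix for its place in the MHC region on chromosome 17. It is also called Hsd17b8 and encodes a dehydrogenase of steroid and fatty acid metabolism, not an antigen-presenting molecule. It had levels of 4.69, 4.61, 4.38 and 4.57 in Senp2-aKO samples and 3.92, 4.29, 3.46 and 3.92 in control samples. The groups did not overlap, control 2 being closest to the Senp2-aKO samples and control 3 farthest. H2-Ke6 rose by 0.67 (SE 0.17), or 1.59-fold (limma adjusted p = 0.0476). The call held without control 2 (0.0394) and was lost without aKO 1 (0.107), aKO 2 (0.0686), aKO 3 (0.0525), aKO 4 (0.0992), control 1 (0.113), control 3 (0.0901) or control 4 (0.0989), and also with scaling by the array median (0.0657) or quantile normalization (0.0506), all limma adjusted p.

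Other genes of the pathway were taken from 6 lists, of which 61 genes were tested at 1 probe a gene. Of these, 2 rose, 2 fell and 57 did not pass, where 5.48% of all tested probes rose and 4.35% fell. In a fit of all genes at 1 probe a gene, adjusted over its own 14729 probes, 7.29% rose and 7.12% fell. Among the 61 genes the lowest adjusted p was that of Cd274 on chromosome 19, which encodes the checkpoint ligand PD-L1 that restrains T cells. It had levels of -0.96, -0.88, -0.23 and -1.22 in Senp2-aKO samples and 1.22, 1.19, 1.04 and 0.86 in control samples. All Senp2-aKO samples lay below 0 and all control samples above it. Cd274 fell by 1.90 (SE 0.21), or 3.73-fold lower with a 95% interval of 2.69 to 5.19 (limma adjusted p = 0.00496). It passed in every fit that left out 1 array, with a limma adjusted p of 0.00283 to 0.0206. Adipocytes are known to make PD-L1, as are immune cells.

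The other 3 calls among the pathway genes were smaller or rested on dim probes. Psme3, a proteasome activator subunit, had 2.57, 2.60, 2.18 and 2.54 in Senp2-aKO samples and 1.74, 2.09, 1.68 and 1.998 in control samples, and rose by 0.60 (SE 0.14, limma adjusted p = 0.0365). Its call held without aKO 3 (0.0214) and was lost without any other 1 array (limma adjusted p of 0.0526 to 0.107). Ifngr1, which encodes the ligand-binding chain of the interferon gamma receptor, had 6.01, 5.83, 5.87 and 5.95 in Senp2-aKO samples and 5.61, 5.64, 5.34 and 5.47 in control samples, and rose by 0.40 (SE 0.10, limma adjusted p = 0.0485). Its call held without aKO 2 (0.0404) and was lost without any other 1 array (limma adjusted p of 0.0672 to 0.127). Ulbp1, a ligand of the NK receptor NKG2D, had -5.45, -5.78, -4.79 and -5.62 in Senp2-aKO samples, none of them well above background, and -4.17, -4.45, -3.78 and -4.55 in control samples. Ulbp1 was at least 1.28-fold lower in Senp2-aKO samples (limma adjusted p = 0.0258). The probe met the brightness filter through the control arrays alone, where it was higher, and the p-value does not allow for that. Ulbp1 lost its call without aKO 1 (0.0623), aKO 4 (0.0660), control 1 (0.0758), control 2 (0.0521) or control 3 (0.0675) and with the normexp background (0.931). By list, 1 of 7 genes of the constitutive proteasome and its activators rose (Psme3), and 1 of 19 genes for the transcription of MHC genes rose (Ifngr1). Of 6 other MHC-related molecules, not all of which present antigens, 1 fell (Ulbp1), and 1 of 7 co-stimulation and checkpoint genes fell (Cd274). None of 11 genes of folding, trimming and recycling in the endoplasmic reticulum and none of 11 genes of endosomal processing passed.

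Of the 62 member probes, 10 were not tested. Of these, 8 were well above background on none of the 8 arrays, namely those of H2-M1, H2-M5, H2-M10.1, H2-M10.2, H2-M10.4, H2-M10.6, H2-Q1 and 1 of both H2-M10.3 probes. The other H2-M10.3 probe was well above background on control 2 alone, and the remaining untested probe was that of H2-Eb2. H2-M10 genes are known in the mouse from neurons of the vomeronasal organ, where they accompany pheromone receptors.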

How the data were processed

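RNA of 4 Senp2-aKO and 4 control samples of the fat pad was hybridised, and the sample titles gave the groups. The authors read the arrays with Agilent Feature Extraction 11.5.1 per the submitters' processing notes, with the background subtracted and spatial trends removed per the file headers. The deposited processed signals are intensity values without scaling between arrays, per the file headers. The deposited marks for signal above background and for outlier spots are 0 or 1. The authors' matrix of normalized values was not used, because its 8 sample columns match no label.

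Each processed signal was put on a log2 scale and the 75th percentile of the array subtracted, spots of a probe were averaged without outlier spots, and a probe was kept when well above background on at least 4 arrays. Probes were named through their accession and the RefSeq table of assembly GRCm38.p6 (27656 of 55681 probes; 28025 had no name there). The groups were compared over 30507 kept probes with limma 3.58.1 in R 4.3.3, with Benjamini-Hochberg adjustment over all of them and a threshold of 0.05. Figures were drawn with matplotlib 3.10.9. The fit was tested on simulated data. Replicate numbers did not pair the samples: same-numbered samples had correlations of -0.04 to 0.12 between their deviations from the group means. Precision is limited by having 4 arrays a group, and p-values measure the spread between these samples. The members, the gene lists, the tests and the alternatives were chosen with earlier results of these data known. The rule for named genes took Senp2, the members that passed, 28 members whatever their result, and up to 4 passing genes of each pathway and marker list; marker lists are given by counts and means, and other genes are marked as named after their values were seen. Alternatives were the scaling, the background model, the filter, outlier spots, 1 probe a gene, the replicate number as a block and leaving out each array.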

Additional observations from a re-analysis of the deposited data

Results flagged for a closer look

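A value was singled out when it lay so far from the other 3 samples of its group that the gap, as a share of the group's range, exceeded the 95% critical value of Dixon. This was examined in 108 groups, where chance gives about 1 in 20, and 14 values were singled out. On aKO 2, class II genes lay above the other Senp2-aKO samples: H2-Aa at 4.67, the H2-Ab1 probes at 7.84 and 7.80, H2-Eb1 at 7.82, Cd74 at 6.88, H2-Oa at 2.43, the H2-Ob probe A_66_P130916 at 1.76 and Ciita at -2.40. The other 3 Senp2-aKO samples reached at most 3.81 for H2-Aa, 7.15 and 7.06 for H2-Ab1, 7.20 for H2-Eb1, 5.93 for Cd74, -1.78 for H2-Oa, -1.75 for H2-Ob and -4.55 for Ciita. On the same array, B2m at 7.89, Tapbp at 4.37 and the Cd1d1 probes at 5.49 and 2.76 lay below the other Senp2-aKO samples. The other 3 Senp2-aKO samples were at 8.17 or more for B2m, 4.69 or more for Tapbp, and 6.34 and 3.65 or more for the Cd1d1 probes. Class I pathway genes were not low on aKO 2 in general. Tap1, Psmb8 and Psmb9 had their highest level of the 8 arrays there (-0.46, 3.80 and 3.63). H2-K1 (A_51_P198434, 8.05) lay within the range of the other Senp2-aKO samples. Among the controls, B2m was high on control 1 at 8.28, where the other 3 reached at most 8.07. The 75th percentile of the signal was high on control 3 at 446, where the other 3 control arrays lay between 408 and 411.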

How the results depend on the processing

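Over all 8 arrays, 1673 probes were higher and 1326 lower, of which 2 and 2 were member probes, and among other pathway genes 2 were higher and 2 lower. Scaling by the array median left 1 member probe and 0 pathway genes higher. Quantile normalization gave 1 pathway gene higher and 4 lower. The normexp background gave 2780 probes higher, 4 of them member probes. Without a filter on dim probes, 910 were higher and 534 lower, with 0 and 0 member probes, and 0 pathway genes were higher and 1 lower, over more probes tested. At 1 probe a gene, 1074 were higher, over fewer probes tested. Replicate numbers did not pair the samples (correlations of 0.0405, -0.0400, 0.125 and 0.114), and not every sample correlated best with its own number. With the replicate block, 1042 probes were higher and 615 lower, with 0 and 0 member probes and 1 pathway gene higher. The median of the array differed by -3.45 (two-sided exact permutation p = 0.0571, against 0.0286 for the 75th percentile). Leaving out 1 array at a time, 559 to 2048 probes were higher and 281 to 1818 lower, 0 to 2 member probes were higher and 0 to 5 lower, and 0 to 3 pathway genes were higher and 1 to 6 lower. The difference in the 75th percentile was -81.2 to -61.0 in these fits (two-sided exact permutation p = 0.0286, the smallest these designs allow, or 0.0571 without any 1 control array).

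Member probes called numbered 4 over all 8 arrays, 0 without aKO 1, aKO 4, control 1 or control 3, 1 without control 2 or control 4, 3 without aKO 3 and 7 without aKO 2. Cd274 passed in all 16 alternatives. Signs turned for probes whose differences did not pass over all 8 arrays. H2-D1 was at -0.090 with the array median, -0.26 with quantile normalization and -0.071 with the normexp background, and H2-Q4 at -0.0438 with the array median and -0.0437 with quantile normalization. With the normexp background, Ciita was at 0.041, the dimmer Nlrc5 probe at 0.0023, and the Cd80 probes at 0.015 and 0.15. Leaving out 1 array gave -0.031 to 0.052 for H2-D1, -0.23 to 0.062 for H2-M3, -0.020 to 0.15 for H2-Q4, -0.035 to 0.071 for B2m, -0.050 to 0.32 for Tap1, -0.17 to 0.10 for Psmb8 and -0.23 to 0.067 for Nlrc5. It gave -0.20 to 1.36 for H2-Oa, -0.36 to 1.21 for H2-Ob, -0.40 to 1.105 for H2-DMb2 and -0.27 to 0.20 for Ctss. It gave -0.25 to 0.076 and -0.29 to 0.047 for the Cd1d1 probes, and -0.29 to 0.089 and -0.18 to 0.22 for the Cd80 probes. Scaling by the array median moved all probes by the same amount, the median of all tested probes being -0.078 with it and 0.015 without it, so its sign changes for H2-D1 and H2-Q4 are that common shift. For the other settings the cause was not tested.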

Other observations

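Ctsl encodes cathepsin L, an endosomal protease that can take part in class II processing, and is named after its values were seen. It had levels of 6.89, 6.17, 7.10 and 7.08 in Senp2-aKO samples and 7.79, 7.49, 7.89 and 7.36 in control samples, with no overlap. Its difference of -0.82 (SE 0.23) did not pass (limma adjusted p = 0.0584), and it passed without aKO 2 at -0.61 (limma adjusted p = 0.0432). It also passed with quantile normalization at -1.03 (0.0258) and with the normexp background at -0.91 (0.0278, both limma adjusted p). Over its 16 alternatives the limma adjusted p was 0.0258 to 0.146.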
